A study of Mus musculus with 12 samples.

Results

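The transcription factors that define the pancreatic beta cell were followed in islets of 4 mouse genotypes. The set holds 8 genes, Pdx1, Mafa, Nkx6-1, Nkx2-2, Neurod1, Isl1, Pax6 and Hnf4a, chosen by name and found on the arrays through the RefSeq accession of each probe. They have 11 probes of the 41174 on the array, or 8 of the 17305 genes with a symbol. Pax6 has 2 probes, Hnf4a has 3, and the other genes have 1 each. Where a gene has several probes, its value is that of the probe with the highest mean signal. This probe was well above background on all 12 arrays for 7 of the 8 genes. The exception is Mafa, which passed on 11 arrays and not on PPARg2KO replicate 2.

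Total RNA of islets from female mice on a C57BL/6 x Sv129 background was hybridised to 1-colour Agilent whole mouse genome arrays, and each genotype has n = 3 of them. WT mice carry neither lesion. PPARg2KO mice lack the gamma-2 isoform of the nuclear receptor PPARg in the whole body. ob/ob mice lack leptin, the adipocyte hormone that restrains food intake, and are obese and insulin resistant. POKO mice, labelled as the OB PPARg2 double knockout, lack both. All mice ate chow. The sample labels give an age of 4 weeks and the study's text gives 5 weeks. Islets were freed with collagenase, picked by hand and kept in culture overnight, and each array holds a pool of 3 to 4 mice. Since the deletions act in every tissue and islets hold several cell types, each value is the sum over all cells of a pool, and fewer cells of a type cannot be told apart from less RNA per cell. The study asked which genes accompany beta cell expansion in obesity, and which part of this needs PPARg2.

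These factors work as a network. Pdx1 builds the pancreas and later drives insulin transcription. Nkx6-1 and Nkx2-2 are homeodomain proteins that set and hold the beta cell fate, Neurod1 is the basic helix-loop-helix partner at the insulin promoter, and Isl1 and Pax6 are needed in all islet endocrine lineages. Mafa is the late factor of the mature beta cell and binds the insulin enhancer next to Pdx1 and Neurod1. Hnf4a is a nuclear receptor of hepatocytes, gut, kidney and pancreas whose loss in humans causes a monogenic diabetes.

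The Hnf4a gene has a pair of start sites in the RefSeq table used here, and the downstream and upstream promoters are set beside those of Nkx6-1, Nkx2-2 and Pax6, because Nkx6-1 and Hnf4a carry the calls below and, of the other members, Nkx2-2 and Pax6 had the highest correlation with Nkx6-1 across the arrays. RefSeq promoters, 250 bases before to 50 after the start, were at hand for 7 of the 8 genes, all but Mafa. The sequences are those of mouse build GRCm38.p6, read 5′ to 3′ on the strand of the gene. Capitals mark any match, on either strand, of GTTANT and TTAAC with 2 bases between (a binding site of the HNF1 factors), CACGTG (an E box), TGACGTCA (a cyclic AMP response element), TAATTA (a homeodomain core) or CCAAT. No 2 of the matches printed here overlap.
Hnf4a upstream start, chr2:163506607-163506906, plus strand: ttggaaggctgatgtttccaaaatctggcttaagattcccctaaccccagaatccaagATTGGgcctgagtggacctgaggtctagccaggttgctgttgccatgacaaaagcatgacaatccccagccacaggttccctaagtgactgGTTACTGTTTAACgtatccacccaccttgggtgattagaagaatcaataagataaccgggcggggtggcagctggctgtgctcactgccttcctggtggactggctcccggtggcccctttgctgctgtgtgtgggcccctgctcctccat
Hnf4a downstream start, chr2:163546905-163547204, plus strand: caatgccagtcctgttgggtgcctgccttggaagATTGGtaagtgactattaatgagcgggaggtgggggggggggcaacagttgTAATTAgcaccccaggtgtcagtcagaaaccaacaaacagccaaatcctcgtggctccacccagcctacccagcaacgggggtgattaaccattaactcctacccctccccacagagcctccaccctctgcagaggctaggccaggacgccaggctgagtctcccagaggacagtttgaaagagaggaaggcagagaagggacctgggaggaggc
Nkx6-1, chr5:101664662-101664961, minus strand: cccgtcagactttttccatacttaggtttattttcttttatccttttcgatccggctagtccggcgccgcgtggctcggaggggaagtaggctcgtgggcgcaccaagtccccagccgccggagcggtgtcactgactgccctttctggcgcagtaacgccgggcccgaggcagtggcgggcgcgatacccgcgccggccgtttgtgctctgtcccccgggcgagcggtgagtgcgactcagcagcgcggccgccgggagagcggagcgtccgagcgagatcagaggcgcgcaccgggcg
Nkx2-2, chr2:147186353-147186652, minus strand: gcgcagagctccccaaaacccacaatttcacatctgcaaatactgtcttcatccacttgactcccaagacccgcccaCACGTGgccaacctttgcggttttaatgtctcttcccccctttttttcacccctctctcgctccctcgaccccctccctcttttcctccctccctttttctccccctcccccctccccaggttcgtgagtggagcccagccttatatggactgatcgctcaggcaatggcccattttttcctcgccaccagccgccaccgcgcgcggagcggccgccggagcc
Pax6, chr2:105668646-105668945, plus strand: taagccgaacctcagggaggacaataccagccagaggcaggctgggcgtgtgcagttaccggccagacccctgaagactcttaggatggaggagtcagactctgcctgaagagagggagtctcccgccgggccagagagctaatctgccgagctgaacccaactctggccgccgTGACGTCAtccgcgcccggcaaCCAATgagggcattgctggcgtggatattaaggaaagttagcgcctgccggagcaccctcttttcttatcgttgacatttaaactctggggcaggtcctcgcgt

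The HNF1 site of the upstream Hnf4a promoter, GTTACTGTTTAAC, begins 101 bases before the start. Among all 32851 promoters listed, 0.0944% hold such a match, and none of the other promoters of these factors does. TAATTA, in 5.29% of all promoters, occurs in the downstream Hnf4a promoter alone among the 9 promoters at hand. CACGTG is in 7.15% of all promoters and occurs here in Nkx2-2, 173 bases before the start, and in Pdx1. Pax6 holds TGACGTCA at its first start, 76 bases upstream, as do 1.79% of all promoters. The Nkx6-1 window matches none of the 5 patterns and has a GC content of 67.3%, against 54% and 57.3% for the Hnf4a windows. These matches describe the letters of the windows, and the arrays do not say which start an islet used.

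Before the results, the arrays themselves need a word. The mean signal of 16 genes common to all endocrine cells, such as the granins and the peptide-processing enzyme Cpe, was 10.11, 10.59 and 11.36 (log2) on WT replicates 1 to 3. It was 10.76 to 11.18 in PPARg2KO, 11.62 to 12.11 in ob/ob and 11.08 to 11.39 in POKO. The WT arrays thus differ among themselves by more than the PPARg2KO or POKO arrays do. Pparg itself read 8.85 to 8.98 in WT and 8.54 to 9.77 in ob/ob, against 6.60 to 7.44 in PPARg2KO and 6.41 to 7.14 in POKO, so its probe follows the labels. Lep was not well above background on any array, which leaves the ob/ob lesion without a check. Beta, alpha and delta cell markers were detected in every genotype, and digestive enzymes of acinar cells were bright on every array. The mean over 10 acinar genes, most of them such enzymes, was 16.36 to 16.91. B cell genes averaged 2.94 to 3.26 in WT and 5.42 to 6.86 in ob/ob and POKO, but 2.5 to 6.48 in PPARg2KO. Each slide holds the 4 arrays of 1 replicate number, and a genotype sits at the same position on all 3 slides, so that position and genotype cannot be told apart.

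**Figure D1:**
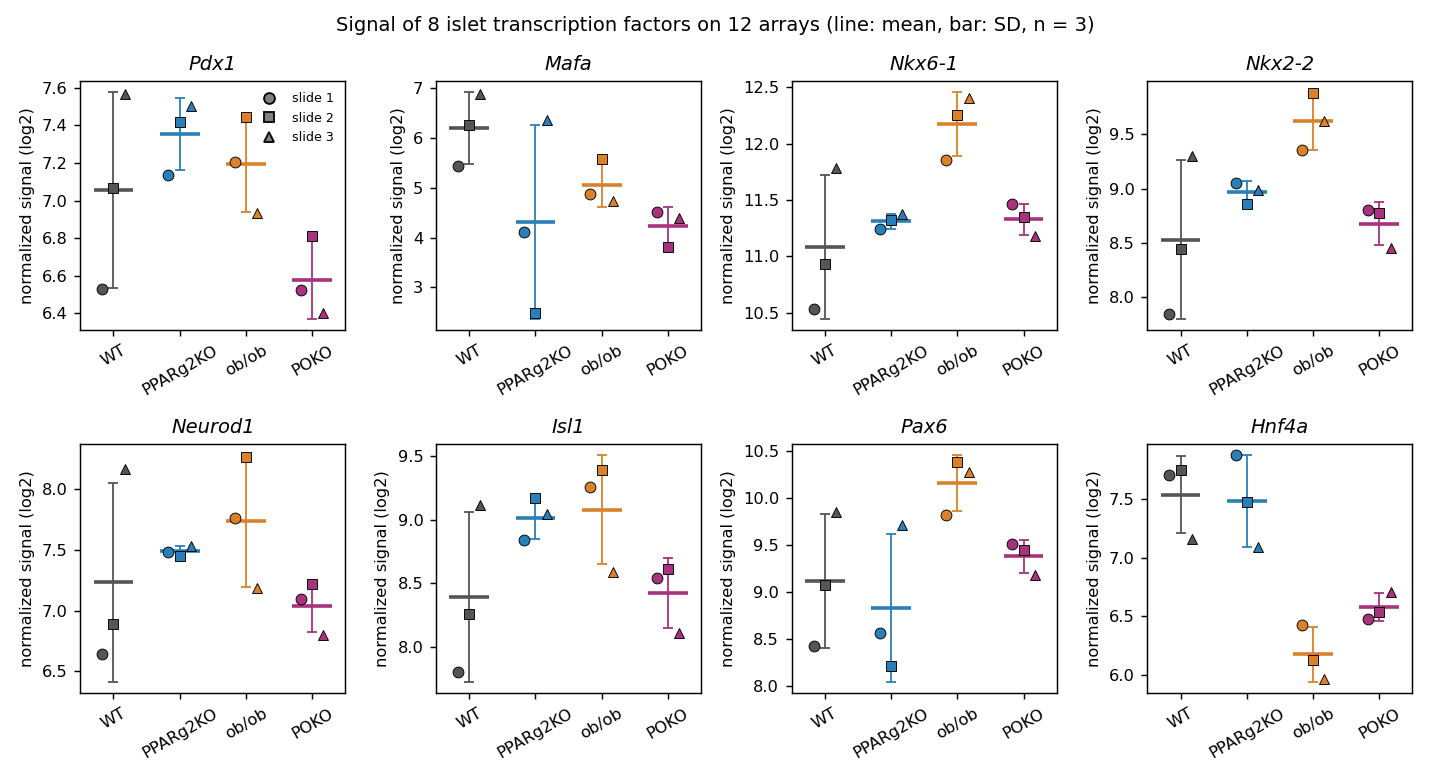
Normalized signal (log2) of the 8 factors on each of 12 arrays, by genotype, with the mean (line) and SD (bar) of n = 3 and a symbol for each slide. The ob/ob arrays are the highest for Nkx6-1 (11.86 to 12.41), Nkx2-2 and, apart from WT replicate 3, Pax6, while Hnf4a is lower on all ob/ob and POKO arrays (5.97 to 6.71) than on any lean array (7.09 to 7.87).

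Nkx6-1 and Hnf4a were the members that changed in ob/ob vs. WT, in opposite directions. At an adjusted p of 0.05 the limma test with Benjamini-Hochberg adjustment over all probes called these 2 of 8 members, where 11.1% of all probes were called. Nkx6-1, a repressor of other endocrine fates, read 10.54, 10.93 and 11.79 in WT and 11.86, 12.25 and 12.41 in ob/ob. Every ob/ob array was above every WT array, as for 11.3% of all probes, with little room between WT replicate 3 and ob/ob replicate 1. The means of 11.08 ± 0.64 and 12.17 ± 0.28 (SD, n = 3) give a rise of 1.09 ± 0.28 (SE) on the log2 scale, or 2.13-fold, with a limma adjusted p of 0.0397. In each slide ob/ob exceeded WT, by 1.32, 1.32 and 0.62. The call, more than the size of the rise, depended on single arrays and on the processing. It is lost when 8 of the 12 arrays are left out in turn (adjusted p up to 0.127, without WT replicate 2), though the rise stayed between 0.81 and 1.44. It is also lost with 75th percentile scaling (0.87, adjusted p = 0.0531) and with another background correction (0.98, adjusted p = 0.0511). A fit of the WT and ob/ob arrays alone left the rise at 1.09 and lost the call too (adjusted p = 0.157). Centring on endocrine genes, described below, turned the sign (-0.15).

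Hnf4a read 7.70, 7.75 and 7.16 in WT and 6.43, 6.13 and 5.97 in ob/ob. All 3 ob/ob arrays lay below all 3 WT arrays, as did 29.8% of all probes on these arrays. It fell by 1.36 ± 0.22 on the log2 scale, 2.56-fold (limma adjusted p = 0.0183), and on the slides the differences were -1.27, -1.62 and -1.19. Leaving out WT replicate 1 or 2 or ob/ob replicate 2 or 3 moved the adjusted p to between 0.0586 and 0.0735. The differences in these fits were -1.27, -1.25, -1.34 and -1.26, about as large as with all arrays. The fit of WT and ob/ob alone moved the adjusted p to 0.0634 at an unchanged difference of -1.36. Background correction with an offset kept the call but reduced the difference to -0.50. The signal is modest, 82.8 to 89.3 units before normalization in ob/ob against 134 to 187 in WT. The second Hnf4a probe read 6.48 ± 0.45 in WT and 4.76 ± 0.67 in ob/ob (SD, n = 3), and every ob/ob array was below every WT array, a difference of -1.73 ± 0.57 (adjusted p = 0.0763). The third was not well above background on any array.

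None of the other members was called, and 6 of the 8 were higher in ob/ob, against 39.7% of all probes. Nkx2-2, which acts upstream of Nkx6-1 in beta cell development, read 7.85, 8.44 and 9.30 in WT and 9.36, 9.89 and 9.63 in ob/ob. The groups do not overlap, and the difference of 1.09 ± 0.31 had a limma adjusted p of 0.0529, just outside the threshold. Pax6, an activator of insulin and glucagon genes, read 8.43, 9.08 and 9.85 in WT and 9.82, 10.38 and 10.28 in ob/ob, a difference of 1.04 ± 0.42 (adjusted p = 0.132), and its second probe differed by 0.97 ± 0.51. Isl1 differed by 0.68 ± 0.33 (adjusted p = 0.192) and Neurod1 by 0.50 ± 0.38 (adjusted p = 0.396). In both, WT replicate 3 lay above ob/ob replicate 3, and within the third slide ob/ob was lower than WT by 0.53 for Isl1 and 0.98 for Neurod1. Pdx1 differed by 0.14 (95% interval -0.42 to 0.70) and Mafa by -1.13 (95% interval -2.97 to 0.71). Intervals of this width hold a change of either sign for both.

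The count of members called depended most on 1 array. Without WT replicate 3, 6 of 8 members were called in ob/ob vs. WT: Nkx6-1, Nkx2-2 (1.48), Isl1 (1.04), Neurod1 (0.97) and Pax6 (1.41) as higher, with Hnf4a lower. Over all probes the count rose from 4555 to 8460 in that fit. Without WT replicate 1 or 2, no member was called, and 509 and 173 probes were. WT replicate 3 was the highest of the WT arrays for every member but Hnf4a and had the highest endocrine mean. What sets it apart was not tested.

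**Figure D2:**
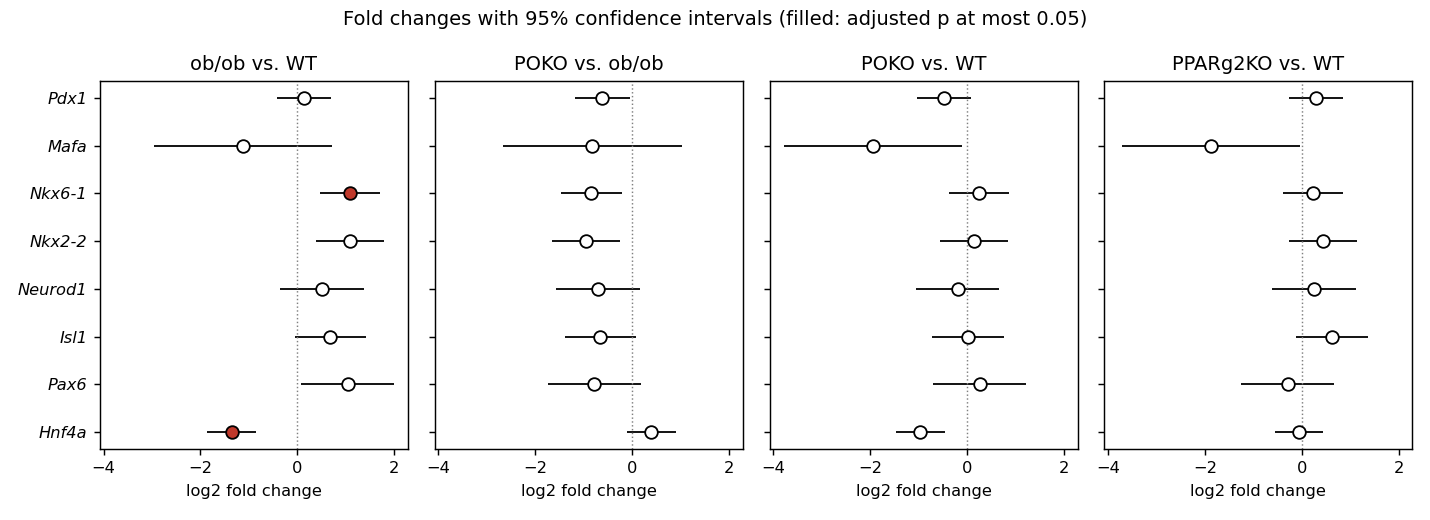
Log2 fold change of each factor in 4 comparisons, with 95% confidence intervals from limma (n = 3 arrays per genotype); filled points have an adjusted p of at most 0.05. Filled points are Nkx6-1 (1.09) and Hnf4a (-1.36) in ob/ob vs. WT, and 7 of the 8 points for POKO vs. ob/ob lie below 0.

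In POKO vs. ob/ob, which asks what PPARg2 loss does in leptin-deficient islets, 7 of 8 members were lower in POKO, as were 45.9% of all probes, and Hnf4a was higher, yet the limma test called none of them. It called 0.00486% of all probes, 2 in number. At an unadjusted p below 0.05 there were 3 members, Nkx6-1, Nkx2-2 and Pdx1, and 9.28% of all probes. The arrays of the groups do not overlap in the lower direction for 5 members, against 8.93% of all probes. For this comparison the study's text cites earlier RT-PCR work at 5 weeks. There Pdx1, Mafa, insulin and Glut2 (Slc2a2) already showed some changes, whose direction the text does not give.

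Nkx6-1 read 11.46, 11.35 and 11.18 in POKO, below every ob/ob array, a difference of -0.84 (95% interval -1.47 to -0.22, adjusted p = 0.531). For Nkx2-2 the POKO arrays read 8.80, 8.78 and 8.45, and the difference was -0.95 (95% interval -1.65 to -0.25, adjusted p = 0.531). POKO arrays read 6.53, 6.81 and 6.40 for Pdx1, against 7.21, 7.45 and 6.94 in ob/ob. These groups are also apart, by -0.62 (95% interval -1.18 to -0.05, adjusted p = 0.531).

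Pax6 read 9.51, 9.45 and 9.19 in POKO, a difference of -0.78 ± 0.42. For Neurod1 the difference was -0.70 ± 0.38 and for Isl1 -0.66 ± 0.33, with overlap in ob/ob replicate 3. Mafa read 4.87, 5.57 and 4.74 in ob/ob and 4.52, 3.81 and 4.39 in POKO, a difference of -0.82 with an SE as large (0.82). Hnf4a read 6.48, 6.54 and 6.71 in POKO, all above ob/ob, as for 8.76% of all probes, a difference of 0.40 ± 0.22 (adjusted p = 0.609). On each of the 3 slides every one of these 8 differences had the sign of its mean. This must be so where the arrays of the groups do not overlap, that is for all members but Neurod1 and Isl1. For Pdx1 the differences were -0.68, -0.64 and -0.53, and for Nkx6-1 -0.40, -0.91 and -1.23. The share of all probes with 1 sign on the 3 slides is not given here, and all 16 general endocrine genes were also lower in POKO. With normexp background correction the differences of the dimmer members shrank, to -0.25 for Pdx1, -0.33 for Neurod1, -0.11 for Mafa and 0.12 for Hnf4a. With weights for single arrays Nkx6-1 (-0.91) and Nkx2-2 (-1.10) were called, each at an adjusted p of 0.0470, and 1187 of the 41174 probes were called in that fit, against 2 without weights.

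**Figure D3:**
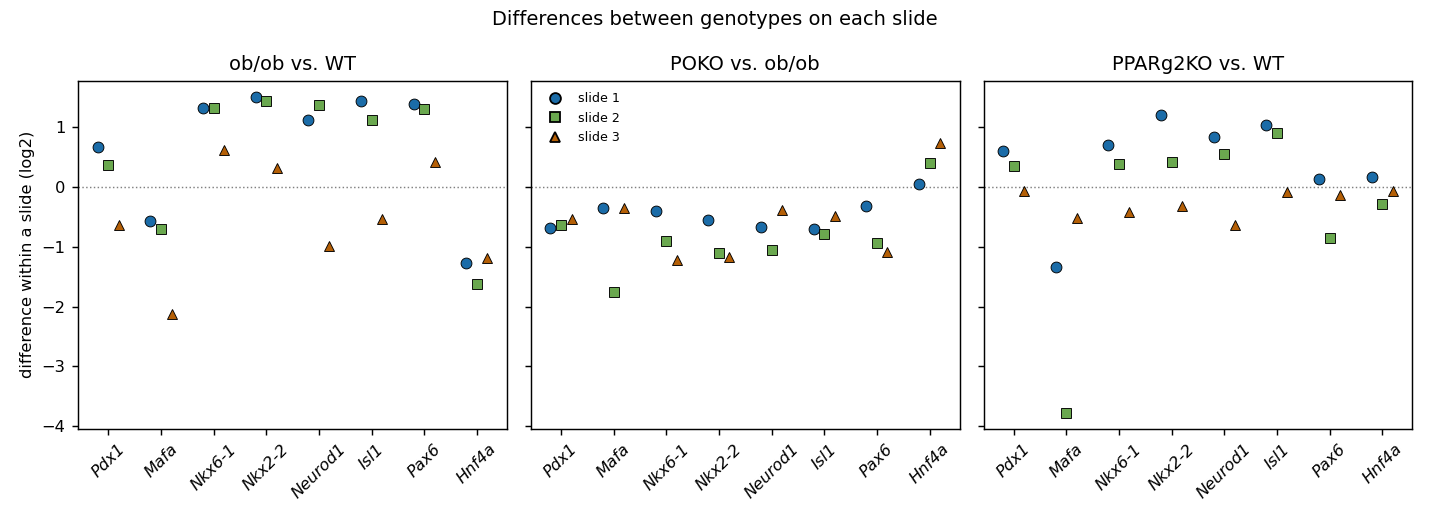
Difference between genotypes (log2) within each of the 3 slides, for each factor. In POKO vs. ob/ob the 3 slides fall on the same side of 0 for each factor. They must do so for all but Neurod1 and Isl1, since the groups do not overlap. In ob/ob vs. WT the third slide turns the sign of Pdx1 (-0.63), Neurod1 (-0.98) and Isl1 (-0.53).

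The difference between POKO and WT was small for most members, and the POKO values of Nkx6-1, Nkx2-2, Neurod1, Isl1 and Pax6 lay within the WT range. No member was called by limma in POKO vs. WT, and 0.194% of all probes were. Nkx6-1 differed by 0.24 (95% interval -0.38 to 0.87), Nkx2-2 by 0.15, Pax6 by 0.26, Isl1 by 0.03 and Neurod1 by -0.19. Pdx1 differed by -0.48 (95% interval -1.04 to 0.09), with 6.40 to 6.81 in POKO and 6.53 to 7.57 in WT. At an unadjusted p below 0.05 there were 2 members, Mafa and Hnf4a, and 16.4% of all probes. Mafa read 5.43, 6.26 and 6.87 in WT, and every POKO array was lower. The difference of -1.95 (95% interval -3.79 to -0.11) had an adjusted p of 0.28, and normexp background correction reduced it to -0.38. Hnf4a differed by -0.96 ± 0.22 with an adjusted p of 0.105, and both members lay lower without overlap, as did 25.5% of all probes. With normexp the Hnf4a difference was also -0.38. This comparison and ob/ob vs. WT share the WT arrays. In the mean of both leptin-deficient genotypes against both lean ones, 9.04% of all probes and 1 member were called, Hnf4a, at -1.13 ± 0.16 (adjusted p = 0.0134), and -0.42 with normexp.

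PPARg2 loss in lean islets changed no member by the test, and limma called 0% of all probes in PPARg2KO vs. WT. At an unadjusted p below 0.05 there were 3856 probes, 9.37% of all, and 1 member, Mafa. It read 4.10, 2.48 and 6.35 in PPARg2KO, a spread from a value not well above background on replicate 2 to one within the WT range on replicate 3. The difference of -1.87 ± 0.82 had an adjusted p of 0.525 and was -0.29 with normexp. Pax6 was low on the same arrays as Mafa, at 8.56 and 8.22 on PPARg2KO replicates 1 and 2 and 9.71 on replicate 3, and its second probe read 3.90, 3.85 and 5.87. For Nkx6-1, Nkx2-2, Neurod1, Isl1 and Pdx1 these arrays stood close together, and Hnf4a read 7.87, 7.47 and 7.09. Nkx6-1 read 11.24, 11.32 and 11.37 and Neurod1 7.49, 7.45 and 7.53, a spread of 0.07 and 0.04 (SD) against 0.64 and 0.82 in WT. Against PPARg2KO, ob/ob had higher Nkx6-1 (0.86 ± 0.28), Nkx2-2 (0.66 ± 0.31) and Pax6 (1.33 ± 0.42) on every array and lower Hnf4a (-1.30 ± 0.22, adjusted p = 0.0802), none past the threshold, with 0.00486% of all probes called. Without regard to the test, 7.27% of all probes were higher and 14.3% lower in ob/ob than PPARg2KO with no overlap. In POKO vs. PPARg2KO no member and 0.00971% of all probes were called. There Pdx1 differed by -0.77 ± 0.25 (adjusted p = 0.328). It was among 5 members that were lower in POKO without overlap, as were 16.1% of all probes.

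Whether PPARg2 loss acted differently in obese and lean islets was tested as a difference of differences (the interaction), POKO minus ob/ob less PPARg2KO minus WT. It called no member and 0% of all probes. At an unadjusted p below 0.05 it gave 4 members, Nkx2-2 (-1.38 ± 0.44), Isl1 (-1.28 ± 0.46), Nkx6-1 (-1.07 ± 0.39) and Pdx1 (-0.91 ± 0.35), and 13.9% of all probes. Their adjusted p lay between 0.277 and 0.313. General endocrine genes gave values of the same sign, with a median of -0.80 and 15 of 16 below 0, beside 0.04 over all probes. Centring on those genes reduced the interaction to -0.50 (Nkx2-2), -0.40 (Isl1), -0.19 (Nkx6-1) and -0.035 (Pdx1). It put Neurod1 at -0.077, Pax6 at 0.39, Hnf4a at 1.33 and Mafa at 1.93, and the median of all probes at 0.92. Without WT replicate 3 the interaction was called for Nkx6-1 (adjusted p = 0.0391) and Nkx2-2 (adjusted p = 0.0386), in a fit that called 685 probes.

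The order of the genotypes was read from the means. For Nkx6-1, Nkx2-2, Neurod1, Isl1 and Pax6, ob/ob stood highest, while for Mafa and Hnf4a WT did and for Pdx1 PPARg2KO did. Neighbours in that order overlapped throughout for Pdx1, Mafa and Neurod1. Nkx6-1 and Pax6 were separated in a single step, from ob/ob to POKO. For Hnf4a, PPARg2KO lay above POKO and POKO above ob/ob without overlap, and WT and PPARg2KO overlapped.

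Isl1 and the main Pax6 probe are each printed as 10 spots, and for these members the spread between arrays was larger than that within them. The other members have 1 spot and no such measure. The SD of log2 signal over the spots of an array was 0.034 to 0.081 for Isl1 and 0.036 to 0.066 for Pax6. Between arrays of a genotype the SD was 0.17 to 0.67 and 0.17 to 0.78. The dim Mafa probe had the widest spread of the members, an SD within genotypes of 1.08, larger than for 97.5% of the named genes' probes. That of Hnf4a was the narrowest, 0.29.

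**Figure D4:**
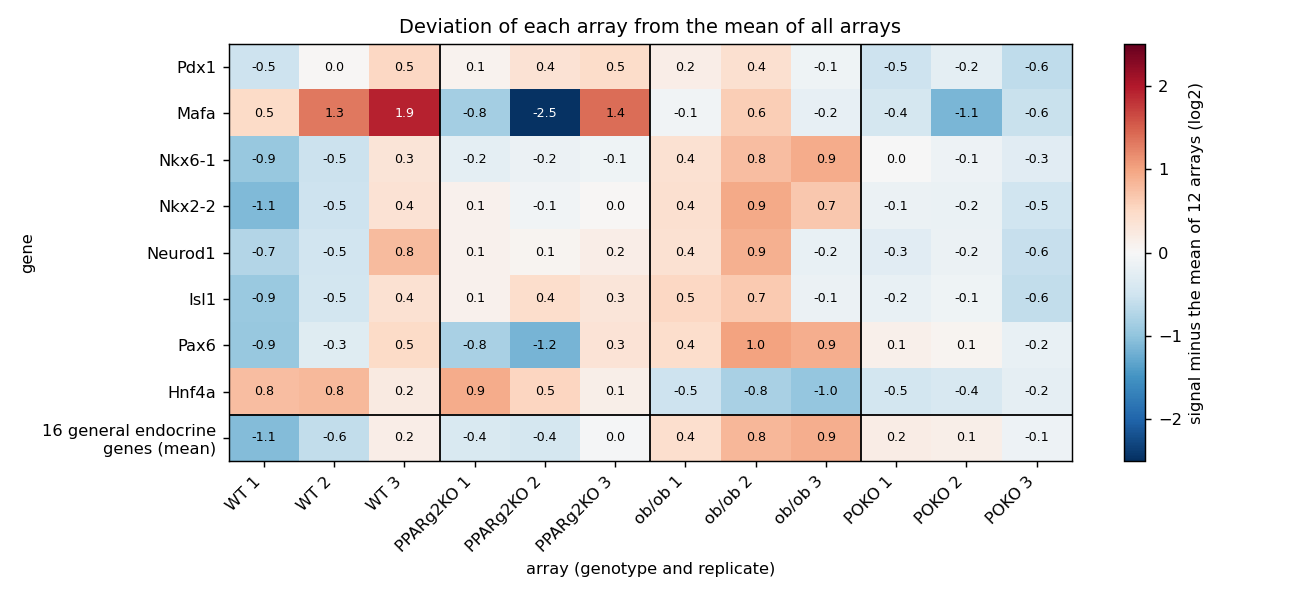
Deviation of each array (columns, by genotype and replicate) from the mean of all 12 arrays in log2 units, for the 8 factors and for the mean of 16 general endocrine genes. WT replicate 1 is low for Nkx2-2 (-1.10), Isl1 (-0.92) and the endocrine mean (-1.09), and Hnf4a runs opposite, at 0.76 there and -0.97 on ob/ob replicate 3.

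Across the 12 arrays several members rose and fell together (28 pairs, two-sided permutation test with 100000 resamples, adjusted over the 28 pairs). The general endocrine mean also varied, from 10.11 to 12.11, and its part in these correlations was not tested. The resampling shuffled all 12 arrays without regard to genotype or slide. Its p-values thus cannot tell a link between factors from differences that genotypes or arrays share. Nkx6-1 and Nkx2-2 were the closest pair, with a Pearson r of 0.95 (adjusted p = 0.00042, permutation) and a Spearman rho of 0.89, and r was 0.94 without the 2 arrays farthest from the median. Neurod1 and Isl1 gave r = 0.92 and rho = 0.94. Within genotypes, after each genotype mean was taken out, r was 0.93 and 0.94 for these pairs. Hnf4a ran against Pax6 (r = -0.82, rho = -0.78, permutation adjusted p = 0.0050) and Nkx6-1 (r = -0.79, rho = -0.82), and within genotypes against both, at -0.79 and -0.74. Mafa followed none of the others over all arrays (r from -0.01 to 0.47), but within genotypes it ran with Pax6 (r = 0.86). The pairs share RNA, array and scaling.

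Other genes with patterns like those of the members were looked up among named genes well above background on all 12 arrays, as a description. The nearest to Nkx6-1 were Tmem106b (r = 0.99) and Tmem163 (r = 0.99), to Nkx2-2 Ghr, the growth hormone receptor (r = 0.98), and Mcf2l (r = 0.97), and to Neurod1 the receptor tyrosine kinase Alk (r = 0.98) and Rnf182 (r = 0.97). Pax6 ran with Apbb1 and the neuronal kinesin Kif1a (r = 0.98 each), Isl1 with Pla2g2d (r = 0.95) and Chd3 (r = 0.93), and Pdx1 with Ppp2r2b (r = 0.94) and Etl4 (r = 0.93). For Hnf4a they were Cabp2 and Ap4m1 (r = 0.98 each), and for Mafa Myh10 and Pigh (r = 0.89 each).

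Genes that these factors are known to bind or activate had a median log2 difference of 0.43 in ob/ob vs. WT over 18 genes, beside -0.08 over all probes, with 2 called as higher and none as lower, the same share as the 11.1% of all probes called in this comparison. They were Pcsk1, the prohormone convertase that cuts proinsulin (1.72 ± 0.44, adjusted p = 0.0407), and Hadh, a mitochondrial enzyme that restrains insulin release (0.81 ± 0.22, adjusted p = 0.0469). Ins1 differed by 0.93 ± 0.28 (adjusted p = 0.0614), while Ins2 sat at the top of the scale on all arrays (18.90 to 18.95) and cannot show a change. Slc2a2, the glucose transporter of the beta cell, differed by -0.60 ± 0.50. In POKO vs. ob/ob every one of these genes but Ins2, which cannot show a change, was lower in POKO. The median over all 18 was -0.74, beside 0.01 over all probes, and none was called. Slc2a2 differed by -0.96 ± 0.50.

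Of 42 other islet transcription factors with a probe, 2 were called as higher and 4 as lower in ob/ob vs. WT, beside 11.1% of all probes called. Etv1 (1.12 ± 0.26) was higher. Lower were Nfatc2 (-0.95 ± 0.18), a calcineurin target, the Notch effector Hes1 (-0.73 ± 0.15), the duct and progenitor factor Sox9 (-0.73 ± 0.17) and Gata6 (-0.42 ± 0.10). The remaining call, named after its value was seen, was Foxo1 (0.76 ± 0.19). Foxa2, which binds the Pdx1 enhancer, differed by 0.09 ± 0.18. None of the 42 was called in POKO vs. ob/ob.

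Markers of other cells moved beside these results. Of 8 duct markers 3 were called as lower in ob/ob vs. WT, Krt19 (-1.57), Cftr (-1.33) and Sox9, and their mean log2 signal was 10.48 to 10.78 in WT and 10.01 to 10.50 in ob/ob. The acinar mean was 16.64 to 16.91 in WT and 16.36 to 16.57 in ob/ob, with none of 10 called. The median difference over these 10 was -0.17. Among them Ptf1a differed by -1.82, just outside the threshold (limma adjusted p = 0.0503), and Rbpjl by -0.59. The others are digestive enzymes near the top of the scale, such as Cel (17.99 to 18.19), which limits the change they can show. T cell genes were called as higher in 6 of 8 cases, B cell genes in 4 of 7, endothelial genes in 4 of 8 and erythroid genes in 3 of 4. The defining markers Ms4a1 and Cd3g were not well above background on the 3 WT arrays, while Cd3e was on all 12 (8.08 to 8.33 in WT) and differed by -1.48 in ob/ob vs. WT (adjusted p = 0.118). Cd79a, well above background on 8 arrays, differed by 0.60. Of the hormones of other islet cells, Gcg differed by 0.25 ± 0.09 and Sst by 0.40 ± 0.34 in ob/ob vs. WT. The same hormones differed by -0.14 ± 0.09 and -1.06 ± 0.34 in POKO vs. ob/ob, and none of 5 hormones was called in either comparison. In POKO vs. ob/ob, where most members were lower, the median was 0.73 over fibroblast and stellate markers, 0.54 over macrophage and dendritic markers and 0.34 over duct markers. It was 0.06 over acinar markers, -0.37 over endothelial and over neuron and Schwann markers, and -0.36 over T cell markers. Erythroid, B cell and adipocyte markers gave -0.23, -0.22 and -0.14. The fibroblast and stellate mean varied from 9.39 to 11.18 between the ob/ob arrays. The part of these cells in the members' differences was not tested.

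**Figure D5:**
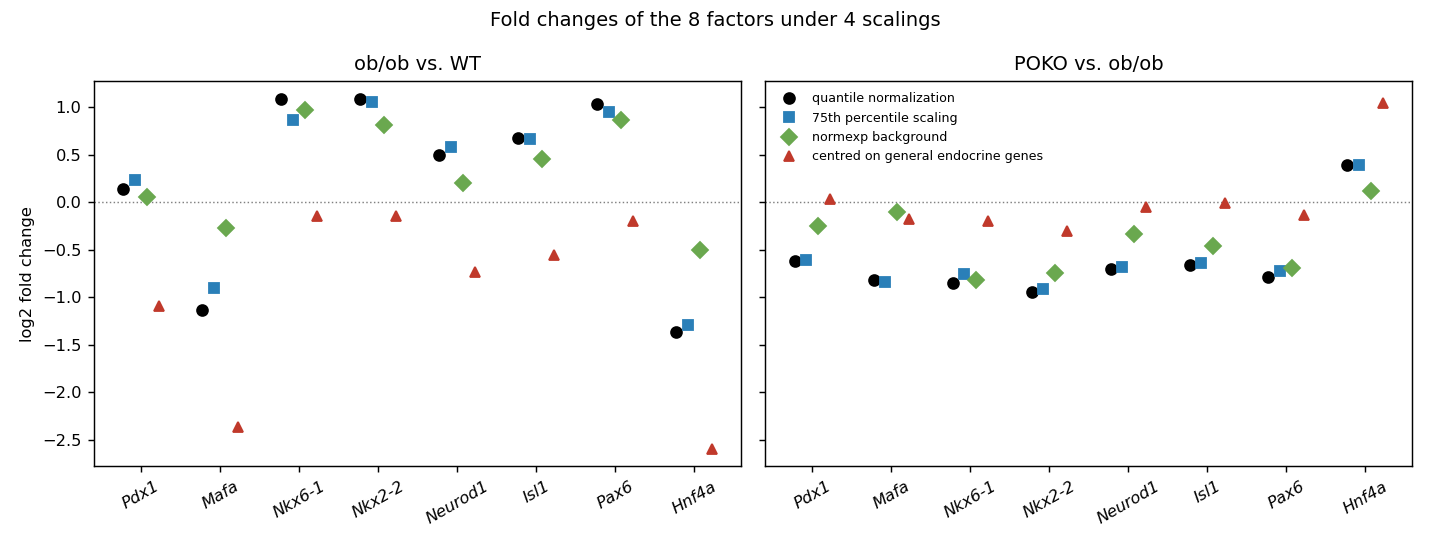
Log2 fold change of each factor, ob/ob vs. WT on the left and POKO vs. ob/ob on the right, under quantile normalization, 75th percentile scaling, background correction with normexp, and centring on 16 general endocrine genes. Centring puts all 8 factors below 0 in ob/ob vs. WT (Nkx6-1 at -0.15) and most of them near 0 in POKO vs. ob/ob (Nkx6-1 at -0.19), with Hnf4a at -2.59 and 1.05.

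The direction of most members in ob/ob vs. WT depended on what they were measured against. The 16 general endocrine genes were all higher in ob/ob, with a median of 1.20 and 5 called, among them the granins Scg2 (2.64 ± 0.41), Chgb (2.14 ± 0.35) and Scg3 (1.97 ± 0.39). When each array was centred on their mean, Nkx6-1 differed by -0.15, Nkx2-2 by -0.14, Pax6 by -0.19, Isl1 by -0.55 and Neurod1 by -0.73, none past the threshold. On that scale Pdx1 (-1.09, adjusted p = 0.00716), Mafa (-2.36, adjusted p = 0.00653) and Hnf4a (-2.59) were called as lower, 3 of 8 members where 31126 of the 41174 probes were called and the median of all probes was -1.31. Pdx1 was thus less low than that median. Centring takes the mean rise of the endocrine genes from every probe alike, so that any smaller rise turns its sign. The rise of Nkx6-1 is thus one relative to the whole array. In POKO vs. ob/ob the same 16 genes were all lower, with a median of -0.63 beside -0.74 for the 8 members. After centring the members' median was -0.09, beside 0.66 over all probes, and 6 of 8 remained below 0. Hnf4a kept its sign under every scaling, lower in ob/ob vs. WT and higher in POKO vs. ob/ob.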

How the data were processed

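The deposited values are, per the file headers, spot intensities of Agilent Feature Extraction 10.1.1.1 with its background subtracted (processed signal) and not normalized between arrays, for 12 arrays with 3 per genotype. The authors normalized the same signal by quantiles, which gave the log2 values of their deposited table. That table has a median of 4.89 to 4.91 in each column and a correlation of 1.00 with the values computed here, and served as an alternative. Groups follow the genotype labels.

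Here 1639 control spots were left out of 45018, the processed signal was quantile normalized and turned into log2 values. The scanner software called 919 spots outliers, which were dropped, and 0 saturated. Repeated spots of a probe were averaged. Symbols came from RefSeq accessions, for 25097 of 41174 probes, in a table of assembly GRCm38.p6. limma 3.58.1 (R 4.3.3) fitted genotype on all 12 arrays, with 8 residual degrees of freedom before moderation, for 6 pairs of genotypes, the interaction and 2 mean effects, with Benjamini-Hochberg adjustment over all probes. A block for each array, which the study's methods name, could not be fitted, since an array holds 1 sample. Where the methods give a sample size of 2 in an unnamed group, all 3 arrays were used here. Nothing states that the pools came from separate cultures, so p-values measure the spread between these arrays, whose number limits the precision.

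Same-numbered arrays share a slide per the file headers. Their deviations from the genotype means correlated by -0.11 to 0.18 on slide 1, 0.01 to 0.08 on slide 2 and -0.13 to 0.16 on slide 3.

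The members and gene lists were chosen with earlier results of these data known. Named genes are the members, up to 5 called genes of each list, a fixed set of islet genes (Ins1, Ins2, Slc2a2, Gcg, Sst and Foxa2, with the others of the set not reported here), and for each member the 2 genes with the highest Pearson r. Of 44 other islet factors 42 had a probe, and of 20 target genes 18. Alternatives were 75th percentile scaling, normexp background correction of the median signal (offset 50, since no mean signal is in the files), centring on endocrine genes, a filter on dim probes, outlier spots kept, a fit of the compared groups alone, the slide as a block, array weights, the authors' values, a fold criterion, the mean of a gene's probes, and each array left out. Scaling to the 75th percentile shifted the median difference over all probes between ob/ob and WT by -0.11. On simulated data for ob/ob vs. WT with 41055 probes and independent normal noise, 100 probes were changed by 1 on the log2 scale and 100 by 2. The fit called 42% of the former and 67% of the latter, and 13 unchanged probes. In the data 4555 probes were called and noise may be shared between probes, so these rates may not carry over.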

Additional observations from a re-analysis of the deposited data

Results flagged for a closer look

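Nkx2-2 was flagged for the signs of its differences under leptin deficiency. On all 3 slides they were opposite in the presence and absence of PPARg2. The share of all probes with this pattern is not given here. In ob/ob vs. WT Nkx2-2 was higher on each slide, by 1.51, 1.45 and 0.32 (fitted 1.09 ± 0.31, limma adjusted p = 0.0529). In POKO vs. PPARg2KO it was lower on each slide, by 0.25, 0.08 and 0.53. The fitted difference there, -0.29 ± 0.31 (limma adjusted p = 0.757), was smaller than its SE, so a fall of Nkx2-2 was not shown. The fitted differences also had opposite signs for Pdx1 (0.14 and -0.77), Neurod1 (0.50 and -0.45) and Isl1 (0.68 and -0.59), but slide 3 had the other sign for each of these in ob/ob vs. WT. The interaction that tests this difference was -1.38 ± 0.44 with a limma adjusted p of 0.277 over all probes and did not pass the threshold. With each array centred on general endocrine genes, the differences were -0.14 and -0.64 and the interaction was -0.50. That centring shifts every probe of an array alike, and the medians over all probes were then -1.31, -0.39 and 0.92. The loss of opposite signs follows from this shift and cannot decide whether Nkx2-2 itself differed. Groups of 3 arrays are too small for the test of single outlying arrays, which was not run.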

How the results depend on the processing

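Of 362 fold changes of single members in ob/ob, POKO and PPARg2KO vs. WT, POKO vs. ob/ob and the interaction recomputed with all arrays, 335 kept their direction and their side of the threshold, and of 480 with 1 array left out, 446 did. No member was called in POKO vs. PPARg2KO, PPARg2KO vs. WT or the PPARg2 loss mean under any alternative. Members called in ob/ob vs. WT numbered 1 with 75th percentile scaling or normexp, 0 in the fit of the compared groups alone (adjusted p = 0.157 for Nkx6-1 and 0.0634 for Hnf4a), 5 with array weights and 0 to 6 with 1 array left out. The fit of the compared groups alone left the differences unchanged, at 1.09 for Nkx6-1 and -1.36 for Hnf4a. The filter on dim probes brought in Nkx2-2 (adjusted p = 0.0293). Over all probes 4159, 3225 and 5415 were called with 75th percentile scaling, normexp and the filter. The fit of the compared groups alone called 564 probes, array weights 11761 and fits with 1 array left out 173 to 8460, beside 4555 in the main fit. Called members were 3 (endocrine centring), 1 (filter on dim probes), 2 (array weights) and 0 to 2 (1 array left out) in ob/ob vs. PPARg2KO; 5, 3 (array weights) and 1 to 4 in the leptin deficiency mean; 2 and 1 with array weights in POKO vs. ob/ob and POKO vs. WT; and 0 to 2 in the interaction with 1 array left out. Over all probes the same settings called 24127, 319, 2090 and 0 to 2179 in ob/ob vs. PPARg2KO. They called 29843, 9401 and 340 to 6868 in the leptin deficiency mean. With array weights 1187 probes were called in POKO vs. ob/ob and 4002 in POKO vs. WT. With 1 array left out the interaction called 1 to 685. The cause of these differences between settings was not tested.

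Signs turned mostly with endocrine centring: in ob/ob vs. WT to -1.09 (Pdx1), -0.15 (Nkx6-1), -0.14 (Nkx2-2), -0.73 (Neurod1), -0.55 (Isl1) and -0.19 (Pax6); in POKO vs. ob/ob to 0.032 (Pdx1); in POKO vs. WT to -0.34 (Nkx6-1), -0.44 (Nkx2-2), -0.56 (Isl1) and -0.32 (Pax6); to -0.0029 for Nkx6-1 in PPARg2KO vs. WT and to 0.39 for Pax6 in the interaction. In POKO vs. WT, normexp moved Isl1 to -0.00075 and array weights moved Neurod1 to 0.0012. With 1 array left out, values that crossed 0 ran from -0.12 to 0.40 for Pdx1 in ob/ob vs. WT. In POKO vs. WT they ran from -0.029 to 0.60 (Nkx6-1), -0.19 to 0.53 (Nkx2-2), -0.49 to 0.27 (Neurod1), -0.27 to 0.39 (Isl1) and -0.082 to 0.63 (Pax6). In PPARg2KO vs. WT they ran from -0.047 to 0.58 (Nkx6-1), -0.039 to 0.72 (Neurod1), -0.73 to 0.077 (Pax6) and -0.25 to 0.14 (Hnf4a). Endocrine centring also turned Mafa (-0.26), Nkx6-1 (-0.14), Nkx2-2 (-0.35), Neurod1 (-0.76) and Isl1 (-0.94) in ob/ob vs. PPARg2KO, and Nkx6-1 (-0.24), Nkx2-2 (-0.39), Neurod1 (-0.77), Isl1 (-0.75) and Pax6 (-0.00021) in the leptin deficiency mean. In POKO vs. PPARg2KO, Nkx6-1 turned to -0.34 with that centring, -0.12 with 75th percentile scaling and -0.021 with normexp, and Mafa to 0.15 with 75th percentile scaling. In the PPARg2 loss mean, centring turned Pdx1 to 0.050 and Isl1 to 0.19, and 75th percentile scaling turned Isl1 to 0.014. Of the turned values printed here, those of Pdx1 in ob/ob vs. WT, of Isl1 in ob/ob vs. PPARg2KO and of Neurod1 and Isl1 in the leptin deficiency mean, all under that centring, passed the threshold. Before centring, Nkx6-1 was called as higher in ob/ob vs. WT, and with array weights Nkx2-2, Isl1 and Pax6 were too.

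With the replicate block, the slide as a fixed effect, the pairing changed no call of a member, and 4947 probes were called in ob/ob vs. WT, 0 in POKO vs. ob/ob, 8 in POKO vs. WT, 1 in ob/ob vs. PPARg2KO and 2 in POKO vs. PPARg2KO.

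Counts over all probes in ob/ob vs. WT were 31126 (endocrine centring), 564 (compared groups alone), 11761 (array weights), 2253 (fold criterion) and 173 to 8460 with 1 array left out. In POKO vs. ob/ob they were 0 with 75th percentile scaling, normexp, endocrine centring, the filter or the compared groups alone, 1187 with array weights, 1 with the authors' values or the fold criterion, and 1 to 27 with 1 array left out. POKO vs. WT gave 330 (75th percentile), 11 (normexp), 29 (endocrine centring), 523 (filter), 467 (compared groups alone), 4002 (array weights), 121 (authors' values) and 14 to 628. PPARg2KO vs. WT gave 1 (endocrine centring), 9 (authors' values) and 0 to 153. ob/ob vs. PPARg2KO gave 1, 12, 24127, 319, 0 and 2090 with 75th percentile scaling, normexp, endocrine centring, the filter, the compared groups alone and array weights, and 0 to 2179. POKO vs. PPARg2KO gave 0, 1, 2, 0, 0 and 9 under the same settings, 2 with the fold criterion and 2 to 656. The interaction gave 1 (endocrine centring, and the authors' values) and 1 to 685, the leptin deficiency mean 2410 (normexp), 29843 (endocrine centring), 9401 (array weights), 1174 (fold criterion) and 340 to 6868, and the PPARg2 loss mean 1 to 8. Dim signal limits Mafa most, whose probe is near background on some arrays.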
